A study of Mus musculus with 2 samples.

Results

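The regulators of G-protein signalling (RGS) described here are 8 genes, Rgs1, Rgs2, Rgs3, Rgs10, Rgs14, Rgs16, Rgs18 and Rgs19. They were taken as a named list, with every probe set that the array's annotation gives to 1 of them alone. That made 18 of the 45101 probe sets, and 8 of 18194 named genes. The samples were bone marrow-derived macrophages (BMDMs) of female C57BL/6J mice aged 8 weeks, grown with M-CSF for over 7 days and then kept for 1 hr under 1 of 2 conditions. In the first, the cells received the supernatant of apoptotic W3 cells, a mouse T cell line carrying Fas, which had been exposed to human Fas ligand for 30 min and left for another 60 min in RPMI with 1% FCS. In the second they received medium, given in the labels as RPMI with 10% FCS. Each condition has 1 array, and the supernatant of living W3 cells is not analysed here, so apoptosis, conditioning by W3 cells and serum content cannot be told apart. The comparison asks whether genes that dampen G-protein-coupled receptors (GPCRs) changed within the hour.

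GPCRs work by loading the alpha subunit of a heterotrimeric G protein with GTP, and the signal lasts until that GTP is hydrolysed. RGS proteins carry a shared RGS domain that binds the active alpha subunit and speeds the hydrolysis, mainly for the Gi and Gq classes. Many are themselves regulated at the mRNA level and so can act as feedback on the receptors. Rgs1, Rgs2, Rgs3, Rgs16 and Rgs18 belong to the R4 subfamily, Rgs10 and Rgs14 to R12, and Rgs19 to RZ. By the order of protein-coding genes in mouse RefSeq, Rgs2, Rgs13, Rgs1, Rgs21 and Rgs18 follow each other without another gene between them, so 3 of the 8 genes lie in a run of 5, and Rgs16 lies beside Rgs8.

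The signals given are MAS5 intensities on a linear scale. Those under 38.4 were treated as dim and set to that floor before ratios were taken. For the floor, the 95th percentile of 80 olfactory and vomeronasal receptor probe sets was taken on each array, and the higher value was used. The probe set with the higher mean over both arrays stands for a gene, and signals of different probe sets are not compared as levels. The median signal was 49.3 on the supernatant array and 53.0 on the medium array. All 9 macrophage markers on the array were above the floor, among them Csf1r, Adgre1 and Cd68. Without a second array of either condition there is neither a p-value nor a replicate SD, and precision is limited by this number of arrays. As a stand-in for spread, the log2 ratios of the brightest pair of probe sets of the same gene differed with an SD, per probe set, of 0.25 over 5196 genes, which covers neither biological nor array-to-array error.

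None of the 8 RGS genes differed by 2-fold between apoptotic supernatant and medium. Over all 11977 genes above the floor on at least 1 array, 0.96% were 2-fold higher or more and 0.843% 2-fold lower or more, so a count of 0 of 8 is near the background. Rgs16 stood highest of the 8 and Rgs3 lowest, and the other 6 genes had log2 ratios between -0.10 and 0.21. The median log2 ratio of the 8 was -0.04, beside -0.02 over all measured genes. At a 1.5-fold threshold, which was chosen after the values were seen, 1 of the 8 was higher (Rgs16) and 1 was lower (Rgs3). The background at that threshold was 3.71% higher and 4.47% lower. All 8 genes had signals above the floor on both arrays, beside 11977 of 18194 named genes above it on at least 1. The genes were chosen with earlier results of these data known, so this count is no finding about them.

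**Figure D1:**
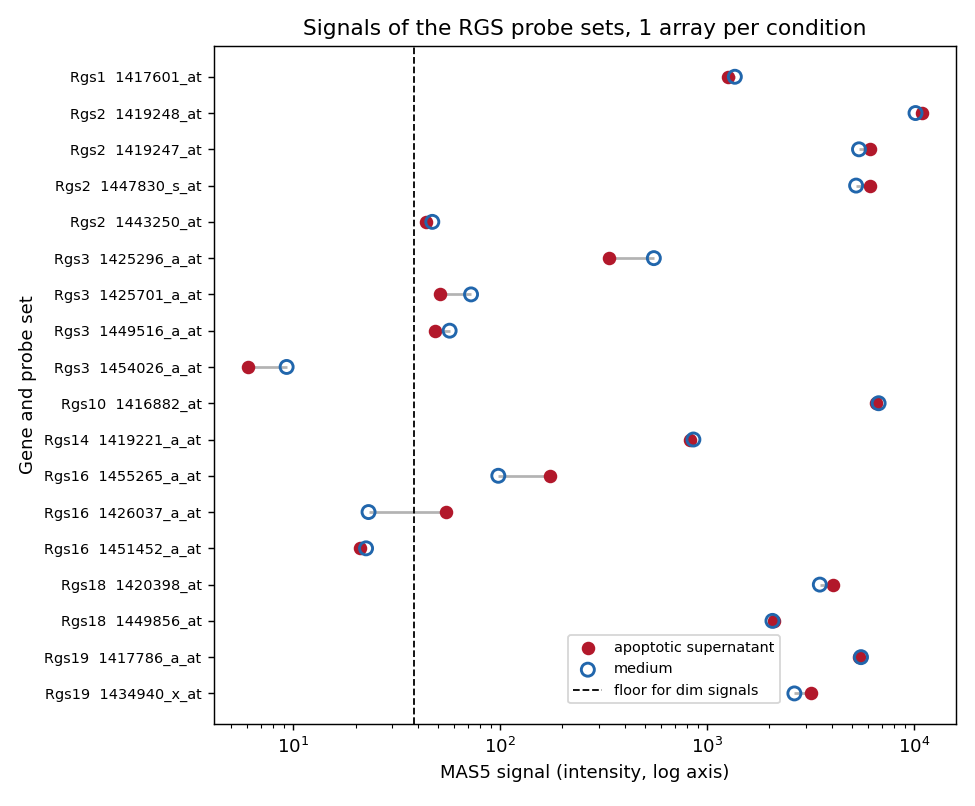
MAS5 signal (intensity, log axis) of each of the 18 RGS probe sets with apoptotic supernatant (filled red circles) and with medium (open blue circles), from 1 array each. A dashed line marks the floor of 38.4. Signals are drawn without the floor applied. Circles that stand apart include those of Rgs16 (1455265_a_at, 174.6 and 97.9) and Rgs3 (1425296_a_at, 337 and 553). So do those of 1426037_a_at of Rgs16 (54.8 and 23.1) and 1454026_a_at of Rgs3 (6.04 and 9.29), which have 1 or both signals under the floor. The circles of Rgs10, Rgs14 and Rgs19 (1417786_a_at) overlap.

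The windows of 250 bases before the RefSeq transcription starts of Rgs16, Rgs3 and Rgs2 are shown because these genes hold the highest ratio, the lowest ratio and the best-known cAMP response of the 8. Sequences are from RefSeq, build GRCm38.p6, and the table of starts used here was matched for 5 of the 8 genes. Windows of Rgs1, Rgs14 and Rgs18 are not analysed here. Each is written 5′ to 3′ on the strand of the gene, and capitals mark a motif match. The windows are chr1:153740103-153740352 (plus strand) for Rgs16, chr4:62559597-62559846 and chr4:62619422-62619671 (plus strand) for 2 starts of Rgs3, and chr1:144004150-144004399 (minus strand) for Rgs2.
Rgs16: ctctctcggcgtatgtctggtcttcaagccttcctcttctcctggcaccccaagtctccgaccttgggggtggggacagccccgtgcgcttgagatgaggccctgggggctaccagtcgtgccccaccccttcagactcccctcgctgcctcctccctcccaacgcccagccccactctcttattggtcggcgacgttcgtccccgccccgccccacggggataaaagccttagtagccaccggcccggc
Rgs3, upstream start: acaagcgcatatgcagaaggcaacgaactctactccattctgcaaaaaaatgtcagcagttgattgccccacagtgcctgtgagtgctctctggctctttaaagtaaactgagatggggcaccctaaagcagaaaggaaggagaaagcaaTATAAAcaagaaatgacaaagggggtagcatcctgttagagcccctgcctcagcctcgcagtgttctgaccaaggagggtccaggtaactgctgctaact
Rgs3, downstream start: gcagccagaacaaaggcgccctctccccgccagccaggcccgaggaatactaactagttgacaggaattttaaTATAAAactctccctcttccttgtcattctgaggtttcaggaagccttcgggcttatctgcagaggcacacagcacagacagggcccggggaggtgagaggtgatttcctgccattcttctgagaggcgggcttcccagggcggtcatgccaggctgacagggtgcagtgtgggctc
Rgs2: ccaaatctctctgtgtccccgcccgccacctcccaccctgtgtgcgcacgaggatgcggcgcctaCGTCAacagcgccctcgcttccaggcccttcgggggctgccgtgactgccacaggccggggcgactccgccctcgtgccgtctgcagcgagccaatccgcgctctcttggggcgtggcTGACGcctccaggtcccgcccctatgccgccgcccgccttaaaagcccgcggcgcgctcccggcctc
Both strands were searched for the full cAMP response element (TGACGTCA), its core TGACG, which the full element contains, an AP-1 site (TGANTCA), the NBRE bound by Nr4a receptors (AAAGGTCA), an NF-kB site (GGGACTTTC) and a TATA box (TATAAA). Rgs2 held the core TGACG at 2 places, starting 67 bases before the start site on the gene's strand and 185 bases before it on the opposite strand, where the printed strand reads CGTCA. The core was in 17.8% of all 32851 windows of the same length, and in 1 of the 8 windows of RGS genes. Both Rgs3 windows held TATAAA, at 100 and 177 bases before their starts, against 12.4% of all windows. The Rgs16 window held none of the 6 motifs. The full cAMP response element, the AP-1 site, the NBRE and the NF-kB site were in 1.55%, 6.75%, 1.34% and 0.289% of all windows. They were in 0 of the 8 windows of RGS genes. These 8 windows come from 5 genes, with 2 for Rgs3 and several, partly overlapping, for Rgs19. The Rgs16 and Rgs2 windows were 66.4% and 72.4% G and C, and those of Rgs3 48.4% and 56.8%, beside a median of 52.4%. A match or its lack is a description of these letters and says nothing of binding.

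Rgs16, an R4 protein that acts on Gi and Gq subunits and is known for restraining chemokine receptor signalling in lymphocytes, is read by 3 probe sets. Its brightest, 1455265_a_at, had a signal of 174.6 with apoptotic supernatant and 97.9 with medium, a ratio of 1.78. The next, 1426037_a_at, read 54.8 with apoptotic supernatant and 23.1 with medium, a ratio of at least 1.43, since the medium signal was under the floor. The third, 1451452_a_at, was under the floor on both arrays (21.1 with apoptotic supernatant and 22.5 with medium) and gives no ratio. Of the 3 probe sets, then, 2 were higher and 1 was uninformative. The signal of 54.8 lies within the range of the olfactory and vomeronasal probe sets, which reach 62.4.

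In the order of log2 ratios over the measured genes, Rgs16 (0.83) was number 211 from the top. With 2 arrays a gene has 1 ratio and no profile, so the genes nearest to it in that order are its only neighbours by likeness. Just above were Spry2, an inhibitor of receptor tyrosine kinase signalling (0.84), and Rilpl2 (0.83). Just below were Castor1, an arginine sensor of the mTORC1 pathway (0.83), and Rimbp2 (0.83), which was under the floor with medium. These 5 genes cannot be told apart by their ratios.

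Rgs3, an R4 protein that also has long isoforms with a PDZ domain, was lower with apoptotic supernatant on each of the 3 probe sets above the floor. Its brightest, 1425296_a_at, read 337 with apoptotic supernatant and 553 with medium and was 1.64-fold lower (log2 ratio -0.71). The signals of 1425701_a_at were 51.2 with apoptotic supernatant and 72.3 with medium, which is 1.41-fold lower. Those of 1449516_a_at were 48.2 with apoptotic supernatant and 57.0 with medium, which is 1.18-fold lower. The fourth, 1454026_a_at, was under the floor on both arrays, at 6.04 with apoptotic supernatant and 9.29 with medium. The direction was shared by the 3 probe sets above the floor, and only the brightest passed 1.5-fold. Of the other pair, both signals of 1449516_a_at and the supernatant signal of 1425701_a_at lie within the olfactory and vomeronasal range up to 62.4. Rgs3 was number 323 from the bottom of the measured genes.

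The width of the ratios over the whole array depends on brightness, and the plot of ratio against signal sets the RGS probe sets in it. Among the 3775 probe sets with a mean signal over 100 and up to 200, the central 95% of log2 ratios ran from -0.89 to 0.76, and Rgs16 at 0.83 lay above this range. Among the 4726 with a mean signal over 200 and up to 500 it ran from -0.68 to 0.60, and Rgs3 at -0.71 lay just below. Of the 15 RGS probe sets with both signals over the floor, 13 lay inside the range of their brightness class, 1 above and 1 below. By construction 5 in 100 probe sets lie outside, so this places the values and is no test.

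**Figure D2:**
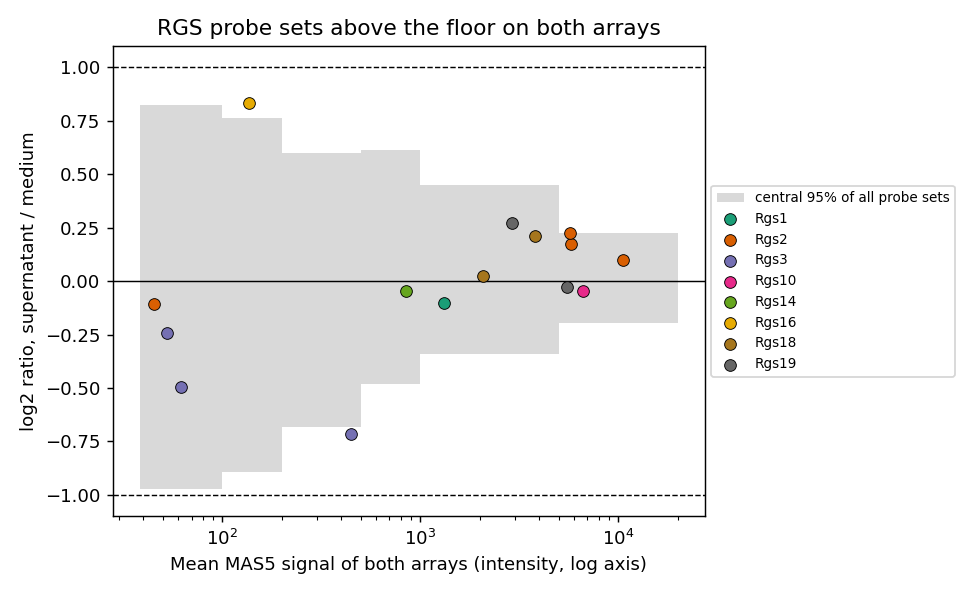
Log2 ratio of apoptotic supernatant to medium against the mean MAS5 signal of both arrays (log axis) for the 15 RGS probe sets whose signals both passed the floor, coloured by gene. Grey bands hold the central 95% of all probe sets of each brightness class, dashed lines mark a 2-fold difference, and the only points outside the bands are Rgs16 at 0.83 and Rgs3 at -0.71.

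Rgs2, an R4 protein that prefers Gq, has a transcript known in other cells to respond to cAMP. Of the 8 windows searched, which cover 5 of the RGS genes, only its window held TGACG. That short sequence was in 17.8% of all windows, and a role for it was not tested. Rgs2 was nearly level on its bright probe sets. On 1419248_at it read 10904 with apoptotic supernatant and 10167 with medium, a ratio of 1.07. The probe set 1419247_at read 6121 with apoptotic supernatant and 5421 with medium (ratio 1.13), and 1447830_s_at read 6125 with apoptotic supernatant and 5249 with medium (ratio 1.17). These 3 bright probe sets all lay slightly on the high side and within the range of probe sets over 5000, which was -0.20 to 0.22 on the log2 scale. The probe set 1447830_s_at, at 0.22, was at the edge of it. A dim probe set, 1443250_at, read 43.6 with apoptotic supernatant and 47.0 with medium.

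Rgs1, an R4 protein known for damping chemokine responses of B and T cells, read 1267 with apoptotic supernatant and 1362 with medium on its only probe set, a ratio of 0.93. Rgs18, an R4 protein best known from platelets and megakaryocytes, read 4055 with apoptotic supernatant and 3506 with medium on 1420398_at (ratio 1.16). On 1449856_at it read 2101 with apoptotic supernatant and 2069 with medium (ratio 1.02). Rgs18 thus had ratios above 1 on both probe sets, by less than the stand-in SD of 0.25 on the log2 scale. Rgs1, Rgs2 and Rgs18, which share a stretch of chromosome, had log2 ratios of -0.10, 0.10 and 0.21 on their brightest probe sets. Of the platelet and megakaryocyte markers, 4 of 6 were above the floor, with summed signals of 399.6 with apoptotic supernatant and 424 with medium. Itga2b read 126 with apoptotic supernatant and 228 with medium. Ppbp read 157 with apoptotic supernatant and 142 with medium (log2 ratio 0.15). Gp5 (log2 ratio 0.55) was under the floor with medium, Gp1bb was at 0.53, and Gp9 and Gp6 were dim on both arrays. The part of such cells in the Rgs18 signal was not tested.

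The R12 and RZ genes showed the smallest differences. Rgs10, a short protein known in microglia for restraining inflammatory activation, read 6540 with apoptotic supernatant and 6744 with medium (ratio 0.97). Rgs14, which also carries Ras-binding domains and a GoLoco motif that holds Gi in its GDP form, read 830 with apoptotic supernatant and 858 with medium (ratio 0.97). Rgs19, first described as a Gi-interacting protein, read 5436 with apoptotic supernatant and 5543 with medium on 1417786_a_at (ratio 0.98). Its other probe set, 1434940_x_at, read 3186 with apoptotic supernatant and 2641 with medium (ratio 1.21). Its suffix marks probes that can cross-hybridise, and the log2 ratios of the pair were -0.03 and 0.27. For Rgs10, Rgs14 and Rgs19 the arrays therefore show no direction.

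The sign of small ratios depended on the scaling. When each array was centred on its median log2 signal, the median log2 ratio of all genes moved by 0.10. The log2 ratios of Rgs10, Rgs14 and Rgs19 then turned to 0.06, 0.06 and 0.08, and that of Rgs1 to 0.00. That of Rgs19 was also above 0 (0.12) with the mean of its probe sets. Relative to the median of all genes under median-centring, Rgs16 was at 0.86 and Rgs3 at -0.69. On that relative scale Rgs1, Rgs10, Rgs14 and Rgs19 stayed slightly below 0, at -0.08, -0.02, -0.03 and -0.005. Across 8 settings that gave it a value Rgs16 ranged from 0.61 to 0.94, and Rgs3 from -0.71 to -0.52. Neither gene reached 2-fold or changed sign under any of them. No probe set without the _s, _x or _a suffix exists for Rgs3, Rgs14, Rgs16 or Rgs19, so these 4 genes have no value in the setting that drops suffixed probe sets.

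**Figure D3:**
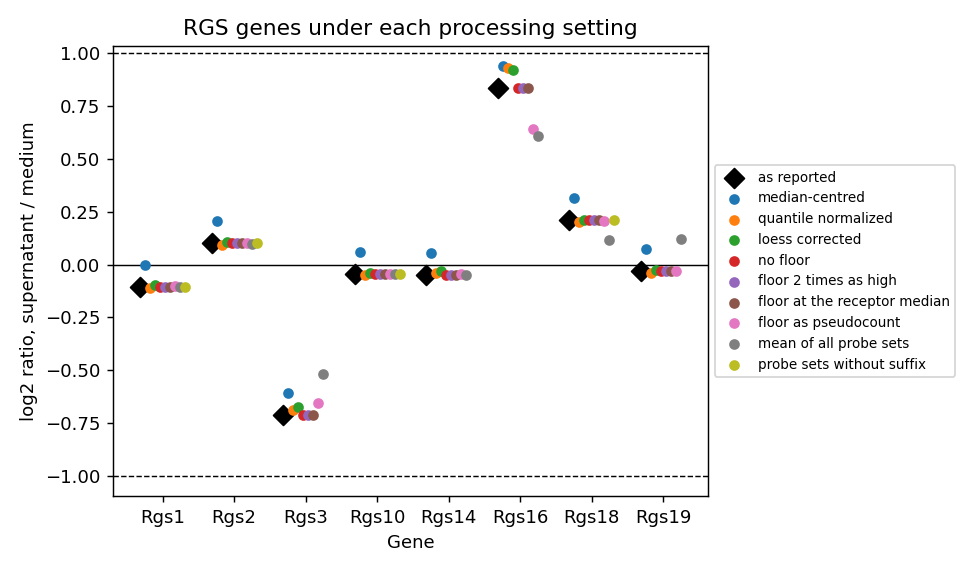
Log2 ratio of apoptotic supernatant to medium for each RGS gene as reported (black diamonds) and under 9 other processing settings (coloured circles). Dashed lines mark 2-fold. Rgs16 stays between 0.61 and 0.94 and Rgs3 between -0.71 and -0.52, while Rgs1, Rgs10, Rgs14 and Rgs19 lie close to 0 and have settings at or above it.

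Most of the other RGS genes on the array were under the floor. Of 11 with a single-gene probe set, 7 were under the floor on both arrays, among them Rgs13, which lies between Rgs2 and Rgs1, and Rgs8, which lies beside Rgs16. Of 24 probe sets 19 were under it, none with a signal over 33.1. Rgs9, an R7 protein known from photoreceptors and striatal neurons, read 63.3 with apoptotic supernatant and 134 with medium on 1418691_at and was 2.12-fold lower. Its probe set 1426033_at read 45.8 with apoptotic supernatant and 16.5 with medium and so had the opposite sign, at least 1.19-fold higher. Rgs11 (R7) read 64.1 with apoptotic supernatant and 89.8 with medium, Rgs12 (R12) 162 with apoptotic supernatant and 192 with medium, and Rgs20 (RZ) 43.9 with apoptotic supernatant and 44.7 with medium. On their brightest probe sets the 4 measured genes had log2 ratios below 0, with a median of -0.36. That of Rgs20 was close to level at -0.03, and the probe sets of Rgs9 disagreed. Probe sets of all genes with mean signals up to 100, and those over 100 and up to 200, had medians of -0.08. No shared direction is read from this.

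Transcripts of the proteins on which RGS proteins act, and of those that act beside them, were mostly near level. None of 9 measured G-protein alpha subunits passed 1.5-fold, and their log2 ratios ran from -0.20 to 0.38 with a median of 0.04. The highest was Gna13, which read 6830 with apoptotic supernatant and 5243 with medium, followed by Gnai1 (log2 ratio 0.25, under the floor with medium) and Gna11 of the Gq class (0.22). Probe sets of Gna13 and of Gna11 disagreed in sign. Of 7 for Gna13, 3 were below 0, down to -0.48, and the second of Gna11 read 147 with apoptotic supernatant and 217 with medium (-0.56). None of 11 beta and gamma subunits passed 1.5-fold on its brightest probe set, with Gng4 at 0.25, Gnb2 at 0.21 and Gngt2 at -0.20. Another Gng4 probe set read 17.4 with apoptotic supernatant, under the floor, and 79.0 with medium, at least 2.06-fold lower, so Gng4 has no settled direction. Nor did any of 6 GPCR kinases and arrestins (-0.57 to 0.17), of 8 other regulators such as Ric8a, Gpsm3 and the phospholipases Plcb2 to Plcb4 (-0.30 to 0.14), or of 10 RGS partners and proteins with an RGS homology domain (-0.57 to 0.26). Among these, Rgs7bp, which anchors R7 proteins to the membrane, read 80.7 with apoptotic supernatant and 120 with medium, 1.49-fold lower. Another of its probe sets, 1437559_at, read 47.0 with apoptotic supernatant and 44.9 with medium, slightly the other way. The kinase Grk4 read 19.8 with apoptotic supernatant, under the floor, and 57.1 with medium. That is 2.88-fold lower as deposited and 1.49-fold lower with the floor. The other genes with the largest ratios were Axin2 (0.26, under the floor with medium) and Axin1 (0.23), scaffolds with an RGS homology domain, Arrb2 (0.17), an arrestin, Grk3 (0.14), Ric8b (-0.30), a chaperone of alpha subunits, Plcb2 (-0.28) and Plcb4 (0.14). Of the 4 dimmer probe sets of Plcb4, 3 were below 0 and 1 above, from -0.72 to 0.53.

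**Figure D4:**
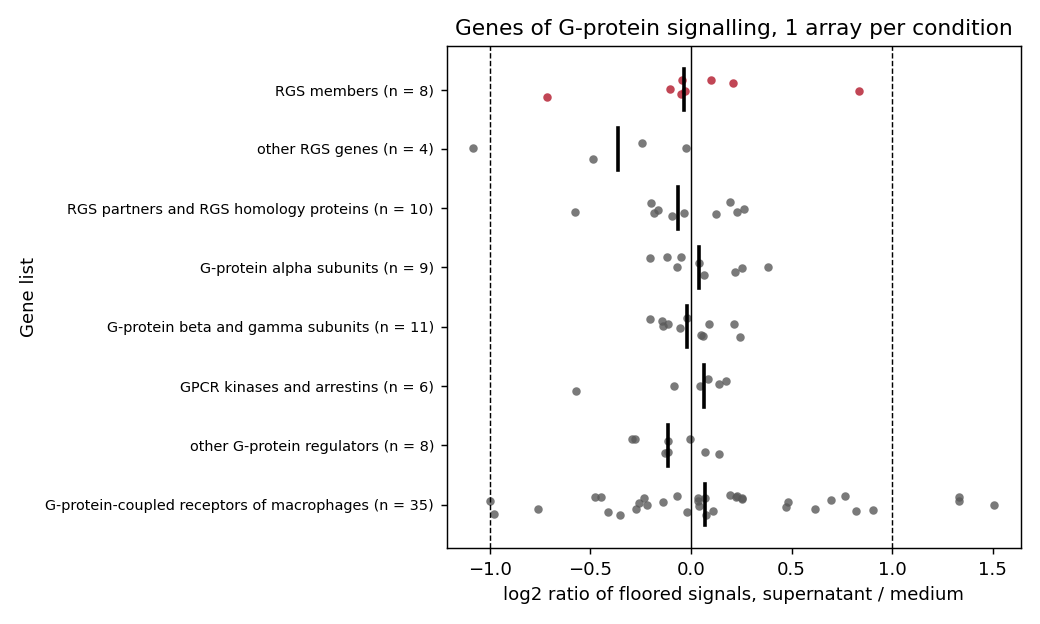
Log2 ratio of floored signals, apoptotic supernatant over medium, for each measured gene (points; vertical scatter within a row has no meaning) of the 8 RGS genes and 7 other lists of G-protein signalling, with medians as black bars. Dashed lines mark 2-fold. The RGS genes run from -0.71 to 0.83 around a median of -0.04, and the receptors reach 1.51.

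In the list of macrophage GPCRs, log2 ratios of single genes reached 1.51, that of Ccrl2. Of 35 measured GPCRs of macrophages 3 were 2-fold higher or more and none was 2-fold lower, beside 0.96% and 0.843% of all measured genes, and their median log2 ratio was 0.07. The count of none lower rests on the floor, since S1pr4, a sphingosine 1-phosphate receptor, read 33.9 with apoptotic supernatant, under the floor, and 76.6 with medium, which is 2.26-fold lower as deposited and just short of 2-fold with the floor. Ccrl2, an atypical chemokine receptor that binds chemerin, read 673 with apoptotic supernatant and 237 with medium, 2.84-fold higher. Gpr35, a Gi and G13 coupled receptor, read 323 with apoptotic supernatant and 128 with medium, 2.52-fold higher. P2ry2, a receptor for ATP and UTP that signals through Gq, read 96.8 with apoptotic supernatant and 9.44 with medium, under the floor, and was at least 2.52-fold higher. At 1.5-fold 8 of the 35 were higher and 3 lower, beside 3.71% and 4.47% of all measured genes. The receptor list was chosen with earlier results of these data known, so its counts at either threshold are no test of an excess. The 3 lower were S1pr4, Cmklr1, a chemerin receptor that read 88.2 with apoptotic supernatant and 174 with medium (1.97-fold lower), and Ptger4. The genes that follow were named after their values were seen, as were S1pr4 and Cmklr1. Gpr183, a Gi coupled oxysterol receptor, read 2163 with apoptotic supernatant and 1155 with medium. Ptger4, a Gs coupled receptor for prostaglandin E2, read 2131 with apoptotic supernatant and 3608 with medium. Ptger2, also a Gs coupled receptor for prostaglandin E2, went the other way, at 826 with apoptotic supernatant and 511 with medium (1.62-fold higher). The rest of the 8 higher genes were Hcar2 (1.77-fold), Gpr65 (1.70-fold) and F2rl2 (at least 1.53-fold, under the floor with medium). The adenosine receptors A1, A2a and A2b had no probe set with a single gene name and are not analysed here.

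Most markers of the cell type that conditioned the medium were under the floor. Of 12 T cell markers 8 had both signals below the floor, Cd3d, Cd3e, Cd3g and Thy1 among them. The summed signal of the 4 measured ones, Cd5, Cd8a, Cd28 and Zap70, was 659 with apoptotic supernatant and 740 with medium, and the largest ratios were those of Cd8a (-0.92, under the floor with apoptotic supernatant), Cd5 (-0.62) and Zap70 (0.59). Of the macrophage markers, Mertk, an engulfment receptor, was 2.23-fold higher, followed by Cd14 (0.38) and Fcgr1 (-0.16). The summed macrophage signal was 129213 with apoptotic supernatant and 125866 with medium. Cd14 alone read 27646 with apoptotic supernatant and 21224 with medium, a wider gap than that of the sums. The median log2 ratio of the 9 macrophage markers was -0.03. Rgs1 and Rgs16, which T cells also express, had ratios of 0.93 and 1.78 on these arrays, and a part of W3 RNA in them was not tested.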

How the data were processed

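RNA of 1 BMDM culture per condition was labelled with biotin and hybridized to an Affymetrix mouse array. The intensity values the authors deposited are linear MAS5 signals, 1 for each probe set, and the submitters' processing notes name MAS5. On both arrays the mean after trimming 2% at each end was 500.0. The target, detection calls and genome build are not given in the sources used here.

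The array annotation gave 34958 probe sets 1 gene, 932 several genes, and 9211 were unlisted. Entrez identifiers of 34754 matched RefSeq, and 0 symbols changed. Probe sets with several genes were not used. Of the deposited intensity columns both were mapped to samples through their titles. Signals were floored at 38.4 and log2 ratios of apoptotic supernatant to medium were taken from the probe set with the highest mean. No test was possible with single arrays. All 8 genes are named, as are the other RGS genes above the floor, and from each other list up to 3 genes with the largest absolute log2 ratio and any gene past 2-fold. The lists hold RGS genes, their partners, G-protein subunits, GPCR kinases and arrestins, other regulators, macrophage GPCRs, and markers of macrophages, T cells, B cells, platelets and megakaryocytes, and neutrophils and mast cells. The genes and lists were chosen with earlier results of these data known. B cell markers (Pax5, Blk, Cd79b) had a median log2 ratio of -0.09 over 3 measured genes, platelet and megakaryocyte markers 0.34 over 4, neutrophil and mast cell markers (Elane, Ngp, Tpsb2) 0.42 over 3, T cell markers -0.55 over 4 and macrophage markers -0.03 over 9.

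Alternatives were median-centring, quantile normalization, loess (span 30%), floors of 76.8 and 10.0 (10.0 is the median of the receptor probe sets) or none, the floor as a pseudocount, all probe sets of a gene averaged, and only probe sets without suffix. The steps were checked on 2 simulated arrays with known folds. Python 3.11.15, numpy 2.4.6, pandas 2.3.3, statsmodels 0.14.6 and matplotlib 3.10.9 were used.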

Additional observations from a re-analysis of the deposited data

How the results depend on the processing

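No paired analysis was possible because the study has a single array of each condition, and for the same reason no array could be left out. The counts of RGS genes at least 2-fold higher or lower were 0 under all 9 settings. Of RGS probe sets 1, 1426037_a_at of Rgs16, was at least 2-fold higher when signals had no floor, and again 1 when the floor was the median of the receptor probe sets. At 1.5-fold, a threshold chosen after the data were seen, 0 RGS genes were lower with the mean of all probe sets. With only probe sets without suffix 0 were higher and 0 lower, since Rgs16 and Rgs3 have no such probe set. No RGS gene's ratio moved by more than the stand-in SD under any setting that gave it a value.

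Over all genes, 115 were at least 2-fold higher and 101 lower. Median-centring gave 150 higher and 60 lower, quantile normalization 137 and 66, and loess 136 and 63. Doubling the floor left 27 lower, and averaging the probe sets of a gene gave 157 lower. Without a floor 1865 were higher and 2116 lower, and with the receptor median as floor 975 and 1158. At 1.5-fold the 444 higher and 535 lower became 2744 and 3150 without a floor, 238 and 239 with the doubled floor, and 1833 and 2251 with the receptor median as floor. The counts over all genes moved most with the treatment of dim signals. Medians of marker lists with few measured genes moved too. With the doubled floor that of platelet and megakaryocyte markers turned to -0.36 and that of T cell markers to 0.06, and that of neutrophil and mast cell markers was 0.86 without a floor and 0.68 with the receptor median as floor.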
